A study of Homo sapiens with 10 samples.

Results

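The end of the short arm of chromosome 19 (19p) was described in windows of 50 kb, from the first base of the chromosome to 20 Mb in hg38. Each gene was placed in 1 window by the midpoint between its lowest start and highest end, and the fragment counts of its genes were summed per window and library. Of 400 windows cut, 357 held a gene midpoint, 322 held a count and 264 were kept because their sum over the 10 libraries reached 100. Across all chromosomes, 11698 windows were kept by the same rule. The 264 windows took in 920 of the 1118 genes of the segment, and the whole segment held 3.33% of all counts. The windows were selected on their total counts. The stretch looked at most closely, 11 windows from 0.60 to 1.15 Mb that run from POLRMT through ARHGAP45 to SBNO2, was chosen with the falls of these 3 genes between the same lines already known, so their values are a description and are not used as a test. The question was whether that stretch fell as a block.

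RNA came from the human bladder cancer line T24 and from T24R2, a cisplatin-resistant line derived from it by serial exposure to cisplatin, with 5 libraries of each from day 3 of culture. T24R2 is 1 derived line, and the methods of the study keep it in medium with cisplatin, whereas the labels list the same drug-free medium for both lines, so line and drug cannot be told apart. Nothing in the labels ties the replicates to separate cultures, and their spread may be technical. In such bulk libraries, fewer cells that express a gene and less RNA per cell cannot be told apart. Total counts were 9257843 to 10840954 fragments per library. Values are given in CPM, fragment counts scaled to a common library size by the TMM method, which allows for differences in composition. The log2 ratio is that of T24R2 to T24 from edgeR's quasi-likelihood fit, with its standard error (SE), and a window or gene was called at a Benjamini-Hochberg adjusted p under 0.05 and a log2 ratio over 0.5 in size. Of 14 urothelial markers looked up, 8 had enough counts for the fit and all 8 were called lower in T24R2. Among all 16181 genes tested, 26.5% were called lower and 24.9% higher. KRT7, a keratin of simple epithelia, had 2236 ± 70 CPM in T24 against 1366 ± 64.4 (SD, n = 5 each) in T24R2, whereas KRT19 fell to 0.0885 ± 0.124 CPM from 266 ± 7.2. GATA3 went to 0.968% of its T24 level, EPCAM to 2.93%, UPK2 to 27.7% and PPARG to 34.5%. KRT18 and KRT8 went to 62.1% and 65.5%. KRT20, KRT5, TP63 and the uroplakin genes UPK1A, UPK1B and UPK3A had too few counts in both lines to be tested.

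The arm is among the most gene-dense stretches of the human genome, with short genes packed close together, many promoters rich in GC, and clusters of zinc finger genes. POLRMT encodes the RNA polymerase that transcribes mitochondrial DNA and primes its replication. ARHGAP45 encodes the protein from which the minor histocompatibility antigen HA-1 is derived. SBNO2 encodes a strawberry notch family protein that acts in transcription downstream of interleukin-10 and STAT3 signalling.

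In hg38, POLRMT lies on the minus strand at chr19:617221-633537, ARHGAP45 on the plus strand at chr19:1065923-1086628 and SBNO2 on the minus strand at chr19:1107637-1174268. The 250 bases upstream of the start in RefSeq (GRCh38.p14) are printed below, 5′ to 3′ on the strand of each gene, for these 3 genes and for 3 neighbours that did not fall, so that promoters of the same stretch can be read side by side. They are POLR2E, which meets ARHGAP45 end to end, HCN2, which lies next to POLRMT, and the long noncoding RNA LINC01836. Capitals mark the GC box, searched as GGGCGG on both strands, which is the core of the sequence bound by the transcription factor SP1.
POLRMT: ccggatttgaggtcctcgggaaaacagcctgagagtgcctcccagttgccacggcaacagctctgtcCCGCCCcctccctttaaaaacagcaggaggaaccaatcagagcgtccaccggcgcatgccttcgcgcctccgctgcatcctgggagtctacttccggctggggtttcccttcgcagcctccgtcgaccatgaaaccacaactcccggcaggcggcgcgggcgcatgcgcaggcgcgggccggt
ARHGAP45: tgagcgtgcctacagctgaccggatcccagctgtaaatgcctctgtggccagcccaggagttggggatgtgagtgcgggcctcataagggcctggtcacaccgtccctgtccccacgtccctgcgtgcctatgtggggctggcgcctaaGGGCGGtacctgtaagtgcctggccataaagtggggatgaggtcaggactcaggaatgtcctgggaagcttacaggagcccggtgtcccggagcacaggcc
SBNO2: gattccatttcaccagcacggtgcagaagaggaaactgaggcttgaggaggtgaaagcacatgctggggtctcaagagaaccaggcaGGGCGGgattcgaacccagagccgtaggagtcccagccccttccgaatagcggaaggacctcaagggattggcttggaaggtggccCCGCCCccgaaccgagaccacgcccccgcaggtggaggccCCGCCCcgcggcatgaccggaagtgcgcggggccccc
POLR2E: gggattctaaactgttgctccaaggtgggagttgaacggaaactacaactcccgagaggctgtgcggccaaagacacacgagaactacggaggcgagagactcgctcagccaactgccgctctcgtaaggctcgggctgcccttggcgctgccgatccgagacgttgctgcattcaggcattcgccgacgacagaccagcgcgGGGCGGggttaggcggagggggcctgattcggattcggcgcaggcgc
HCN2: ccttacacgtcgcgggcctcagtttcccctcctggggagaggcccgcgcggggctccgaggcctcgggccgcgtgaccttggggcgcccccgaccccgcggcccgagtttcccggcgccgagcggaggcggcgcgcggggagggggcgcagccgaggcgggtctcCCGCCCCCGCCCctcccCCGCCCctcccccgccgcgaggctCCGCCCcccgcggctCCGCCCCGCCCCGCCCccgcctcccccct
LINC01836: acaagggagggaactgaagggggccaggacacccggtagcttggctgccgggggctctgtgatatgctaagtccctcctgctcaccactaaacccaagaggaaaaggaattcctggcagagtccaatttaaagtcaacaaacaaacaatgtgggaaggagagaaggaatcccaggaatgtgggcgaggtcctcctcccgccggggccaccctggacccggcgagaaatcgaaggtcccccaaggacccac

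These windows are chr19:633538-633787 for POLRMT, chr19:1065709-1065958 for ARHGAP45, chr19:1174269-1174518 for SBNO2, chr19:1095376-1095625 for POLR2E, chr19:589631-589880 for HCN2 and chr19:782546-782795 for LINC01836. A promoter was matched for 19 of the 24 genes tested in the stretch. A GC box stood in 17 of the 19, or 89.5%, against 42.3% of the 27305 promoters of the table. It was present in all 8 matched promoters of genes called lower and in 1 of the 2 matched promoters of genes called higher. Among matched genes not called, such as POLR2E, only the promoter of CNN2 lacked it. A link between the GC box and the calls was not tested. A CCAAT box, searched as CCAAT on both strands, stood in 9 of the 19 (47.4%, against 33% of all), and a TATA box, searched as TATAAA on both strands, in 2 (10.5%, against 11.1%). The promoters of the stretch had a median GC content of 70.4%, against 58% over all promoters.

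The stretch from POLRMT to SBNO2 did not move one way. Of its 11 windows, 3 were called lower, 2 were called higher and 6 were not called, and the 2 higher windows lay between lower ones. Over all chromosomes, 26.3% of windows were called lower and 25.1% higher. The median log2 ratio of the 11 windows was -0.14, against 0.02 for all windows and 0.13 for the 264 windows of the arm. That sign depended on the scaling. Without scaling beyond library size the median was 0.03, and that of all windows was 0.18. A change of scaling shifts every window by nearly the same amount. The distance of the stretch below the median of all windows was therefore bound to be alike, 0.15, under TMM, upper-quartile scaling and no scaling. Since the stretch was picked for falling genes, nothing is read from that distance. Under both other scalings 2 windows and not 3 were called lower. Other ways of cutting the stretch gave a lower median. The median was -0.28 in windows of 25 kb, with 7 of 18 lower and 2 higher, -0.29 in windows shifted by 25 kb, with 4 of 11 lower and 1 higher, and -0.63 without the gene with most counts in each window, with 4 of 8 lower and 1 higher. In windows of 100 kb it was -0.18, with 1 of 6 lower and 1 higher. Each of these cuts thus held lower and higher windows together.

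Going from the telomere inwards, the window of POLRMT at 0.60 to 0.65 Mb was called lower, with 98.5 ± 3.67 CPM in T24 against 61.8 ± 7.21 (SD, n = 5 each) in T24R2, a log2 ratio of -0.67 (SE 0.06). The next, led by FSTL3 and RNF126, had a log2 ratio of -0.30 (SE 0.05) and was not called. Both windows after it were called higher. The window of PALM, at 0.70 to 0.75 Mb, went from 5.19 ± 1.32 to 13.5 ± 1.6 CPM (log2 ratio 1.37, SE 0.15), and that of LINC01836 and MISP from 8.42 ± 1.22 to 17.4 ± 2.89 (1.04, SE 0.13; SD, n = 5 each). These 2 windows held few counts beside their neighbours. The window of PTBP1, at 528 ± 28.8 CPM in T24 against 480 ± 13.5 (SD, n = 5 each) in T24R2, had a log2 ratio of -0.14 (SE 0.04), and that of MED16 one of -0.03 (SE 0.06). Neither was called. The window of R3HDM4, at 0.90 to 0.95 Mb, was called lower at -0.54 (SE 0.05), and its neighbour with WDR18 and ARID3A stood at 0.16 (SE 0.06). The window of CNN2 and TMEM259 stood at -0.21 (SE 0.04). The window that holds ARHGAP45, at 1.05 to 1.10 Mb, was not called, with 262 ± 10.9 CPM in T24 against 243 ± 12.9 (SD, n = 5 each) in T24R2 and a log2 ratio of -0.11 (SE 0.04). POLR2E supplied 71.4% of its counts. The last window, at 1.10 to 1.15 Mb with GPX4 and SBNO2, was called lower, at 427 ± 12.5 CPM in T24 against 262 ± 22.2 (SD, n = 5 each) in T24R2 and a log2 ratio of -0.71 (SE 0.05).

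In 5 of the 11 windows every T24R2 library lay below every T24 library, in 2 every T24R2 library lay above, and in 4 the lines overlapped. Over all chromosomes 32.7% of windows had every T24R2 library below and 32.7% had every one above.

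**Figure D1:**
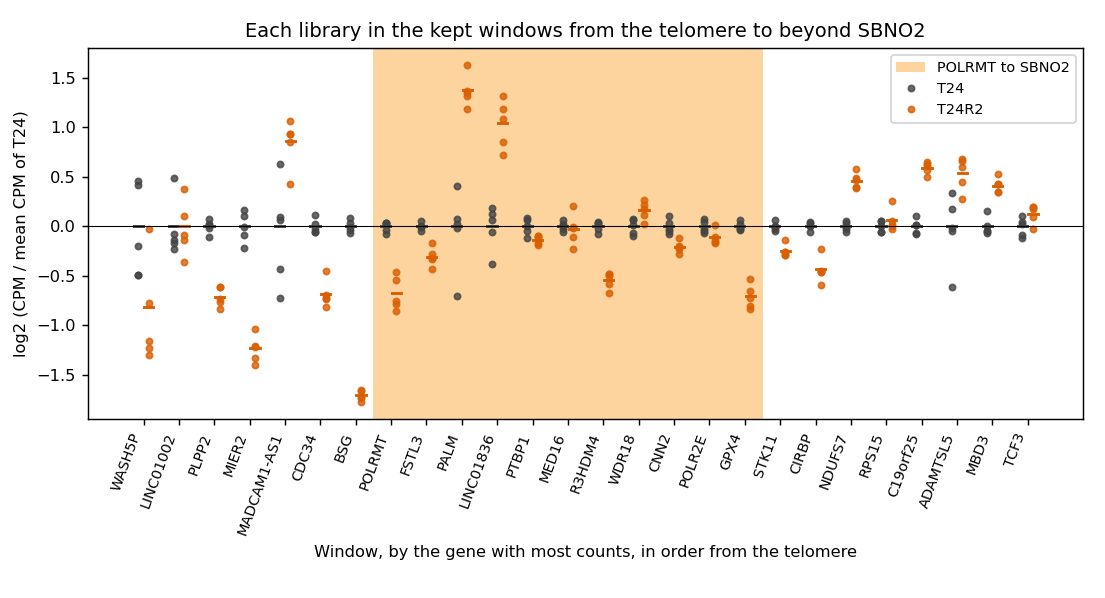
Level of each library in each kept window from the telomere to 1.65 Mb, as log2 of its CPM over the mean CPM of T24 (vertical axis); windows are in order from the telomere and named by the gene with most counts, points are the 5 libraries per line, short bars the mean of each line, and the shaded span is POLRMT to SBNO2. T24R2 sits below T24 at POLRMT, R3HDM4 and GPX4, above it at PALM and LINC01836, and closer to it in the other 6 windows, while the window of BSG, just outside the span, shows a fall of 1.71.

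The genes themselves showed the same mixture. Of 41 genes in the stretch, 37 had a count and 24 could be tested. The 17 others never exceeded 10 counts in a library, and 4 of them were at 0 throughout. Of the 24, 9 were called lower, 4 were called higher and 11 were not called, and 16 had a log2 ratio below 0. Over the 16181 genes tested, 26.5% were called lower and 24.9% higher, against 37.5% and 16.7% here. Since the stretch was picked for falling genes, nothing is read from that difference. The median log2 ratio of the 24 was -0.21, against 0.01 for all genes.

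POLRMT had 78.4, 85.8, 81, 83 and 79.1 CPM in the T24 libraries and 43.7, 33.7, 37.3, 34 and 36.5 in the T24R2 libraries. The lines did not overlap, and T24R2 kept 45.5% of the T24 level, a log2 ratio of -1.14 (SE 0.07). ARHGAP45 showed the deepest fall of the stretch, from 82.1, 76.2, 73.1, 71.9 and 73.6 CPM to 24.4, 19.8, 16.3, 20.3 and 20.4. All T24R2 libraries again lay below all T24 libraries, at 26.9% of the T24 level (log2 ratio -1.89, SE 0.08). SBNO2 went from 202, 218, 219, 217 and 219 CPM to 118, 108, 123, 104 and 116. No library overlapped, and 53% of the T24 level remained (log2 ratio -0.92, SE 0.05).

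Most of their direct neighbours were not called or went the other way. HCN2, a channel of the pacemaker current on the distal side of POLRMT, was called higher, from 16.9 ± 3.35 to 24.4 ± 4.07 CPM (SD, n = 5 each; log2 ratio 0.53, SE 0.11), though its libraries overlapped and the value lies just past the threshold. On the other side of POLRMT, RNF126, a ubiquitin ligase, had a log2 ratio of 0.14 (SE 0.06). ABCA7, a lipid transporter that ends next to the start of ARHGAP45, stood at 27.5 ± 1 CPM in T24 against 25 ± 1.38 in T24R2 (SD, n = 5 each; log2 ratio -0.14, SE 0.08). POLR2E, the subunit of RNA polymerases I, II and III that lies beyond ARHGAP45, had 166, 166, 155, 150 and 156 CPM in T24 and 216, 196, 192, 194 and 190 in T24R2. Every T24R2 library was above every T24 library, but the log2 ratio of 0.32 (SE 0.05) was under the threshold. The 3′ ends of ARHGAP45 and POLR2E overlap at chr19:1086574-1086628, and the shared exon bases are 0.882% of ARHGAP45 and 1.13% of POLR2E. So ARHGAP45 fell between an upstream and a downstream neighbour that were not called. GPX4, the glutathione peroxidase that removes lipid peroxides and the neighbour of SBNO2, was called lower just past the threshold, from 213 ± 16.5 to 148 ± 14.8 CPM (SD, n = 5 each; log2 ratio -0.52, SE 0.06). It was not called without T24 replicate 1 or 4 or T24R2 replicate 2 or 4. STK11, the kinase gene on the other side of SBNO2 and outside the stretch, was not called at -0.28 (SE 0.05).

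The other genes called lower were FSTL3, CFD, R3HDM4, ARID3A and GRIN3B. FSTL3 encodes a secreted binder of activin and went to 59% of T24, from 71.8 ± 1.73 to 42.4 ± 2.7 CPM (SD, n = 5 each; log2 ratio -0.76, SE 0.06). ARID3A, which encodes an AT-rich DNA-binding factor, went to 50.8% (log2 ratio -0.98, SE 0.12) and lies next to WDR18, whose log2 ratio was 0.47 (SE 0.06). This pair shares a window, which was not called. CFD, the complement protease factor D, went to 47.4% (-1.08, SE 0.23), and GRIN3B, a subunit of the NMDA receptor, to 43.2% (-1.20, SE 0.15). CFD was measured at 4.13 ± 0.883 CPM in T24 and GRIN3B at 16.6 ± 2.31 (SD, n = 5 each). R3HDM4 went to 68.9% (-0.54, SE 0.05), close to the threshold, and neither it nor GPX4 was called without scaling or with upper-quartile scaling.

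Besides HCN2, the genes called higher were PALM, LINC01836 and ENSG00000272473. PALM, which encodes the membrane-bound protein paralemmin, had 3.19 to 6.89 CPM in T24 and 11.8 to 16.1 in T24R2, without overlap (log2 ratio 1.37, SE 0.15). LINC01836 had 3.55 to 4.67 CPM in T24 and 10.5 to 15.8 in T24R2, also without overlap (1.76, SE 0.15). ENSG00000272473 overlapped between the lines, at 0.638 ± 0.437 and 1.22 ± 0.501 CPM (SD, n = 5 each), with an adjusted p of 0.0499 from edgeR's quasi-likelihood test. HCN2 and ENSG00000272473 were no longer called when T24 replicate 2, 3 or 5 or T24R2 replicate 1 or 3 was left out, which left 2 genes higher, whereas PALM and LINC01836 remained. Among genes not called were PTBP1, the splicing repressor, at 91% of T24, MED16, a subunit of Mediator, at 102%, and CNN2, a calponin, at 95.4%. TMEM259 stood at 75.3% with a log2 ratio of -0.41 (SE 0.05) and MISP at -0.43 (SE 0.24). ENSG00000274177 lies opposite TMEM259 and ENSG00000279753 opposite CNN2 with all of their exon bases, and had log2 ratios of -0.29 (SE 0.07) and -0.09 (SE 0.06). The counts of such pairs cannot be told apart if the library kit did not keep strand. Of the 24 genes, 3 had over 10% of their exon bases covered by an opposite-strand gene, and 15 had none.

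**Figure D2:**
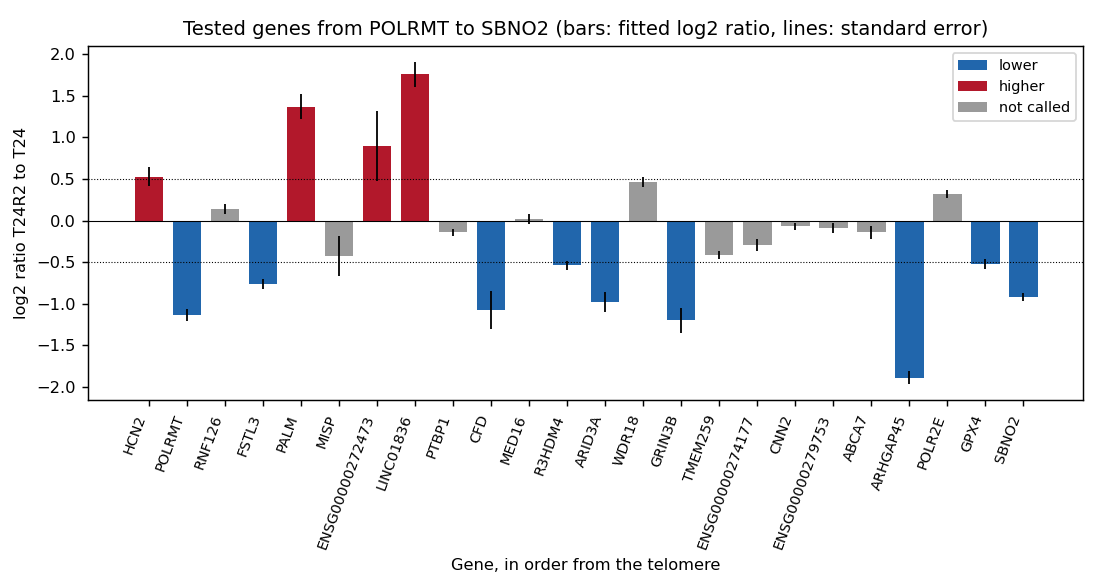
Fitted log2 ratio of T24R2 to T24 (vertical axis; bars) with its standard error (lines) for the 24 tested genes from POLRMT to SBNO2 in order from the telomere, coloured by call; dotted lines mark 0.5 in each direction. The 9 lower and 4 higher genes are interleaved with 11 that were not called, and the deep bar of ARHGAP45 stands between ABCA7 and POLR2E near 0.

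On the telomere side of the stretch, lower windows were closer together. Of the 7 kept windows before 0.60 Mb, 5 were called lower, 1 was called higher and 1 was not called, with a median log2 ratio of -0.71. Over all chromosomes 26.3% of windows were called lower and 25.1% higher. In 4 of the 7 all T24R2 libraries lay below all T24 libraries, against 32.7% of windows over all chromosomes. The genes of these 7 windows were described after their values were seen, apart from BSG and CDC34. WASH5P, a pseudogene of the WASH family near the telomere, stood at 3.13 ± 0.948 CPM in T24 against 1.72 ± 0.562 (SD, n = 5 each) in T24R2, with overlap, and it belongs to a family of near-identical copies, so its count is uncertain. PLPP2, a lipid phosphatase, went to 58.9% of T24 (log2 ratio -0.76, SE 0.09) and MIER2, a histone deacetylase partner, to 43.6% (-1.20, SE 0.09), with 14.2% of its exon bases covered by an opposite-strand gene. CDC34, the ubiquitin-conjugating enzyme of the SCF ligases, went from 71.8 ± 4.12 to 38.3 ± 4.52 CPM (SD, n = 5 each; log2 ratio -0.91, SE 0.07), while TPGS1 in the same window was called higher (0.54, SE 0.14).

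BSG, which encodes basigin (CD147), the chaperone of the lactate transporters MCT1 and MCT4, supplied 99% of the counts of the window next to POLRMT's. It had 861, 829, 771, 807 and 792 CPM in T24 and 257, 257, 238, 245 and 244 in T24R2. The lines were far apart, at 30.6% of the T24 level and a log2 ratio of -1.71 (SE 0.04). Its antisense partner BSG-AS1 went from 6.66 ± 0.425 to 0.353 ± 0.163 CPM (SD, n = 5 each), and 8.86% of the exon bases of BSG-AS1 are shared with genes on the other strand. The windows of CDC34, BSG and POLRMT, from 0.50 to 0.65 Mb, made a run of 3 lower windows, the longest lower run of the segment together with 1 other. HCN2, which lies between BSG and POLRMT, was called higher, so that the genes in this run did not all fall. The run was interrupted on its telomere side by the window of MADCAM1-AS1, called higher at 0.86 (SE 0.19) with libraries that overlapped.

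Beyond SBNO2, the next 8 kept windows had no lower call, 2 higher calls and a median log2 ratio of 0.27. Of all windows, 26.3% were called lower and 25.1% higher, against 0% and 25% here. The first pair, led by STK11 and by CIRBP, still had every T24R2 library below every T24 library, at -0.24 (SE 0.04) and -0.44 (SE 0.05). From NDUFS7 at 1.35 Mb to TCF3, which ends at 1.65 Mb as a window, ratios were above 0. They ran from 0.07 (SE 0.04) for the window of RPS15 to 0.59 (SE 0.05) for that of C19orf25, with 0.46 (SE 0.05) for NDUFS7. The kept window after these, that of ATP8B3, stood at -0.04 (SE 0.13).

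Across the whole segment, higher windows outnumbered lower ones. Of the 264 windows, 42 (15.9%) were called lower and 64 (24.2%) higher, and 158 were not called. Over all chromosomes 26.3% were lower and 25.1% higher, so the segment had a smaller share of lower windows and a similar share of higher ones. All T24R2 libraries lay below all T24 libraries in 63 windows and above them in 89, and the lines overlapped in 112. Over all chromosomes 32.7% of windows lay below in this way and 32.7% above. The middle 50% of log2 ratios ran from -0.22 to 0.49. Without scaling beyond library size, 28 were lower and 89 higher. The median log2 ratio of all windows rose from 0.02 to 0.18 in that setting, so these counts cannot be set against the shares above. On the rest of chromosome 19, 64 of 360 windows were lower (17.8%) and 103 higher (28.6%), with a median of 0.16. These values lie close to those of the segment. Gene by gene, 90 of 522 tested genes (17.2%) were called lower and 132 (25.3%) higher, against 26.5% and 24.9% of all tested genes. Without scaling the counts of the segment were 68 and 177, which likewise cannot be set against those shares.

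**Figure D3:**
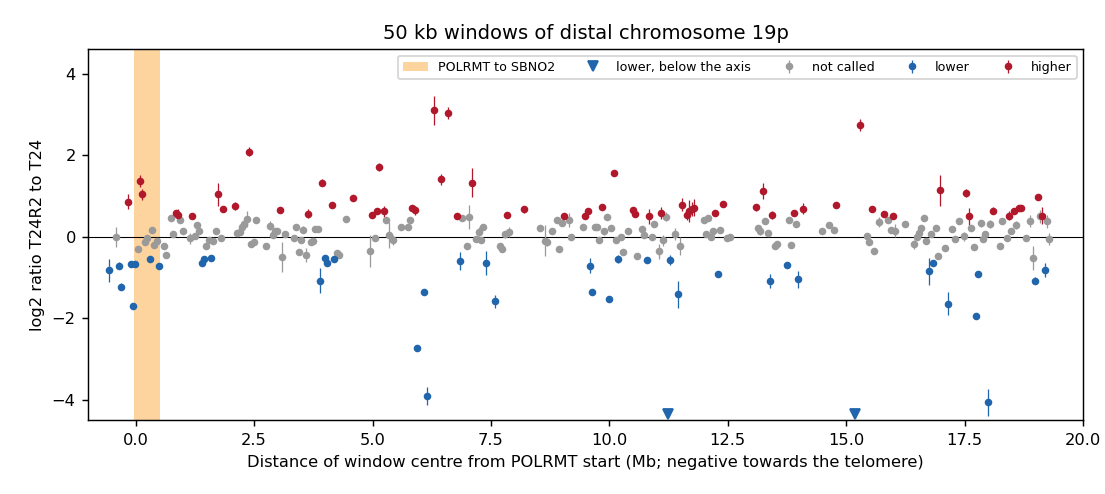
Fitted log2 ratio of T24R2 to T24 (vertical axis; points, with the standard error) for the 264 kept windows against the distance of the window's centre from the start of POLRMT in Mb, coloured by call; 2 windows with almost no counts in T24R2 are drawn as triangles at the lower edge. Lower and higher windows lie along the whole segment, and the shaded span of POLRMT to SBNO2 holds both.

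Binned by megabase, the first bin had the lowest median log2 ratio, -0.30, with 7 of its 15 windows lower and 3 higher. Over all chromosomes 26.3% of windows were called lower and 25.1% higher. The first bin takes in much of the stretch that was picked for falling genes. The next bin, which holds ARHGAP45 and SBNO2, had 1 lower and 3 higher of 16 and a median of 0.10. Medians of the 20 bins reached 0.48 in the sixth bin, which holds LONP1, DUS3L and SAFB, and 5 of the 20 were below 0. In 15 bins lower and higher calls stood side by side, and in 3 the lower calls were more numerous.

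**Figure D4:**
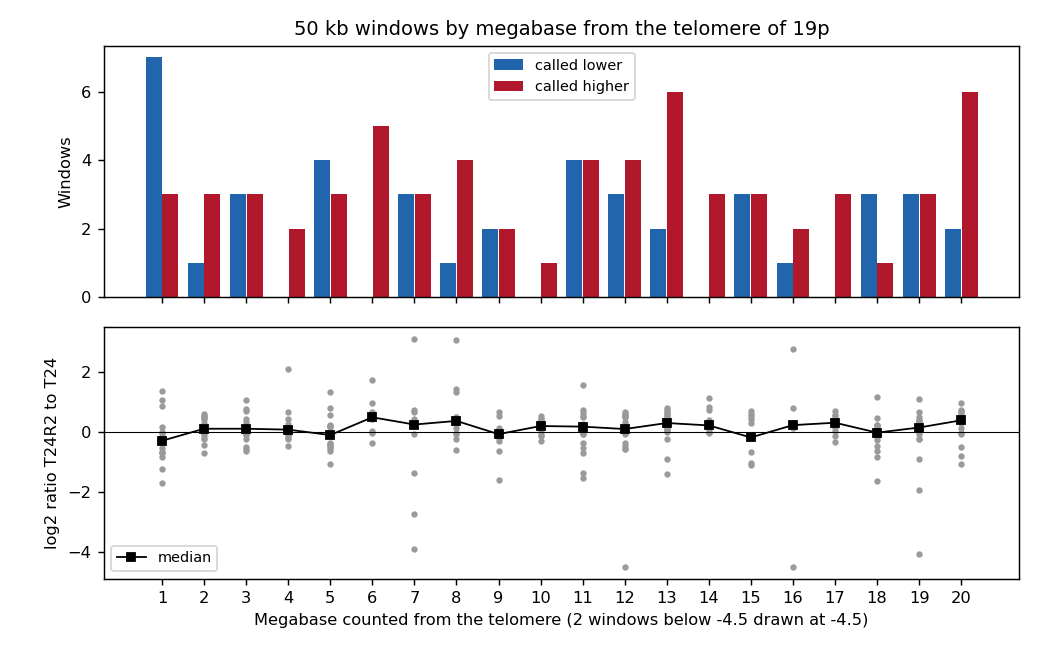
Number of windows called lower and higher (upper panel) and log2 ratio of each window with the median (lower panel) for the 20 megabases counted from the telomere of 19p; 2 windows below -4.5 are drawn at -4.5. The first megabase has 7 lower and 3 higher windows and a median of -0.30, and the other medians range up to 0.48.

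Runs of 3 or more kept windows with the same call were few. Apart from 0.50 to 0.65 Mb, the other lower run lay at 6.55 to 6.80 Mb with CD70, TRIP10 with C3, and SH2D3A, at log2 ratios of -2.73 (SE 0.07), -1.36 (SE 0.04) and -3.91 (SE 0.22). CD70 encodes the ligand of CD27 and C3 the central complement component. The next kept windows made a higher run of 4 at 6.90 to 7.45 Mb, with ADGRE1, ZNF557, INSR and ARHGEF18. Their log2 ratios were 3.10 (SE 0.35), 1.41 (SE 0.14), 3.04 (SE 0.14) and 0.50 (SE 0.05), the last just past the threshold. A lower and a higher run thus followed each other among the kept windows here, away from POLRMT. Windows dropped for low counts can lie between the windows of a run.

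The other higher runs were 5.70 to 5.90 Mb, with the mitochondrial protease LONP1, DUS3L and the complex I subunit NDUFA11 (median log2 ratio 0.64), and 12.15 to 12.45 Mb, 5 windows each led by a zinc finger gene, ZNF136, ZNF44, ZNF563, ZNF799 and ZNF443 (median 0.67). These genes are close paralogues, and reads shared between them were not counted. The longest runs of the segment were 3 lower and 5 higher windows, and those over all chromosomes were 19 lower and 19 higher. A longest run grows with the number of windows, 264 here and 11698 over all chromosomes, so these lengths cannot be set against each other. By sign alone the longest runs were 6 windows below 0, from that of MKNK2 to that of OAZ1, and 8 above 0, which occurred both from that of GADD45B to that of TLE2 and from that of ZNF136 to that of TNPO2.

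Neighbouring windows were little alike. Over 200 pairs of adjacent kept windows of the segment, the log2 ratios correlated at r = 0.08 (Spearman's rank coefficient 0.06), against 0.30 (rank coefficient 0.42) over 4913 pairs of all chromosomes. Such pairs share libraries and neighbouring genes, and the values are given as a description. Where 2 adjacent tested genes were both called, the direction was the same in 74 pairs and opposite in 33 in the segment (69.2% the same), against 78.9% the same over all chromosomes. Pairs with the same direction were thus the more common. No level for unrelated genes was computed, and genes that overlap on opposite strands may carry each other's fragments. In the stretch from POLRMT to SBNO2 the count was 3 pairs with the same direction and 2 with opposite directions.

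A window mostly stood for a single gene. The gene with most counts supplied a median of 93.2% of a window's counts, and over 90% in 140 windows. Of the 135 windows with at least 2 tested genes, 14 held a lower and a higher gene together, 6 held lower genes alone and 6 higher genes alone, and each of the others held at least 1 gene that was not called.

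Among windows with a sum of 1000 or more, the largest fall was that of UCA1 and LINC01764 at 15.80 to 15.85 Mb. UCA1, a long noncoding RNA known from bladder cancer with 26.1% of its exon bases covered from the opposite strand, had 56.6 to 71 CPM in T24 and a single count in all T24R2 libraries together, at least 236-fold lower against a floor of 3 counts per library. LINC01764 was at least 130-fold lower by the same floor. The next kept window, that of the cytochrome P450 gene CYP4F11 at 15.90 to 15.95 Mb, went the other way. It went from 3.36 ± 0.984 to 22.6 ± 1.84 CPM (SD, n = 5 each; log2 ratio 2.74, SE 0.14). The window between them was not kept, so opposite changes stood in successive kept windows there.

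CD70 itself went from 115 ± 5.32 to 17.2 ± 1.92 CPM and SLC44A2, a choline transporter-like protein, from 112 ± 6.87 to 38.3 ± 3.37 (SD, n = 5 each). The window of PGPEP1 and the cytokine gene GDF15 had a log2 ratio of -1.95 (SE 0.08). PGPEP1, with 53.5% of its counts over all 10 libraries, stood at -0.69 (SE 0.08). In T24, PGPEP1 had a mean of 41.9 CPM against 104 for the window, and in T24R2 26 against 26.8. The rest came from GDF15 and MIR3189. Among windows with a sum of 1000 or more, the highest log2 ratio was that of the insulin receptor gene INSR, with 1.94 to 3.52 CPM in T24 and 21.8 to 26.7 in T24R2. Its log2 ratio was 3.04 (SE 0.14), and the gene spans chr19:7112255-7294414 but counted in 1 window only. After INSR and CYP4F11 came TLE2, a Groucho family corepressor, with 6.64 ± 0.981 and 28.3 ± 2.93 CPM, then DUS3L, a dihydrouridine synthase of tRNA, with 11 ± 0.966 and 34.2 ± 2.21, and QTRT1, the catalytic subunit of the queuine transferase of tRNA, with 17.1 ± 1.47 and 50.6 ± 5.7 (SD, n = 5 each). Both tRNA-modifying enzymes were thus higher in every T24R2 library.

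The other genes of the segment were followed in groups by function. For comparison, 26.5% of all tested genes were called lower and 24.9% higher, and within the segment 17.2% and 25.3%. Of 26 mitochondrial genes listed, 23 were tested, 2 were called lower (POLRMT and GPX4), 8 higher and 13 not called (8.7% lower and 34.8% higher), with a median log2 ratio of 0.36. SLC25A23, a carrier of ATP and phosphate, went from 51.8 ± 6.83 to 90 ± 5.72 CPM and MPV17L2, a factor of the mitochondrial ribosome, from 11.5 ± 0.562 to 24.9 ± 2.06 (SD, n = 5 each), with no overlap of the lines in either. Genes of transcription and RNA processing numbered 34 tested, 4 lower, 11 higher and 19 not called (11.8% lower and 32.4% higher, median 0.27). Beside SBNO2 in this group, the helicase gene DDX49 went from 22.8 ± 2.71 to 53.6 ± 3.94 CPM and the maintenance methyltransferase gene DNMT1 from 164 ± 12.5 to 254 ± 6.25 (SD, n = 5 each).

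Of 17 genes of growth control, 2 were called lower, 3 higher and 12 not called (11.8% lower and 17.6% higher, against 26.5% and 24.9% of all genes, median -0.06). The 3 with the smallest adjusted p were INSR, MKNK2, a kinase of the translation factor eIF4E, which went to 170 ± 6.92 from 267 ± 11.2 CPM (SD, n = 5 each), and CDC34. Of 42 zinc finger genes tested, 4 were called lower, 17 higher and 21 not called (9.52% lower and 40.5% higher, median 0.45). ZNF557 went from 4.59 ± 0.338 to 12.3 ± 0.567 CPM (SD, n = 5 each), while ZNF69 and ZNF439 were at the floor in T24R2, at least 14.8-fold and at least 9.08-fold lower. The stretch itself holds genes of neutrophil granules, AZU1, PRTN3, ELANE and PRSS57, and none of them exceeded 3 counts in a library. Of 20 blood cell genes in the segment, 9 had 3 counts or fewer in every library, 5 of these 0, and 6 were tested, of which 3 were lower (CD70, LYL1, EPOR), 2 higher (ADGRE1, CD209) and 1 not called. Their summed level was 151 to 163 CPM in T24 and 44 to 53.1 in T24R2, and in T24 most of it was CD70.

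At the edge of the rule, the kept windows with the smallest sums were 3.70 to 3.75 Mb with TJP3, at 104 counts over the 10 libraries (57 in T24 and 47 in T24R2), and 5.55 to 5.60 Mb with TINCR, at 113 (59 and 54). Just outside lay 16.95 to 17.00 Mb with CPAMD8, at 99 (69 and 30), and 15.30 to 15.35 Mb with ENSG00000273218, at 90 (19 and 71).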

How the data were processed

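RNA-seq of 5 T24 and 5 T24R2 libraries was used, grouped by the cell line in the labels. According to the submitters' notes and file headers, STAR 2.7.0 was used for alignment to hg38, SAMtools 1.10 for removing multi-mapped and duplicate reads, and featureCounts 2.0.1 for counting over GENCODE 39 genes. The values the authors deposited are raw counts per gene and library, with no normalization or pooling. Counting used strand option 1, and the kit is not described as keeping strand, so a gene overlapped from the opposite strand may carry its partner's fragments (167 of 522 tested genes of the segment share over 10% of exon bases with one, found with bedtools 2.31.1). Removal of duplicates by position can lower the counts of abundant genes, and the limit of 3 counts covers counting error only.

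Total counts were 9257843 to 10840954 per library, and 20 pairs of libraries within a line differed by more than sampling noise (2.01 to 7.09 as chi-square over degrees of freedom). Genes (16181 after filterByExpr of 61533) and 50 kb windows with a sum of 100 or more (11698 over all chromosomes) were fitted in R 4.3.3 with edgeR 4.0.16 (TMM factors from the genes, glmQLFit, glmQLFTest, Benjamini-Hochberg over each whole table). The SE is the log2 ratio divided by the square root of F. Promoters came from the RefSeq table of GRCh38.p14. In data simulated from these libraries with 200 changes well past the threshold, the gene fit and the window fit recovered most of them. That simulation tried neither the TMM scaling nor changes near the threshold. Python 3.11.15, numpy 2.4.6, pandas 2.3.3 and matplotlib 3.10.9 were also used.

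The windows, the stretch and the gene lists were chosen with earlier results of these data known, and the zinc finger list was added later as all genes named ZNF with a number. Genes named are POLRMT, ARHGAP45 and SBNO2, every tested gene of the stretch, the gene with most counts in each of the 5 highest and 5 lowest windows with a sum of 1000 or more, at most 3 genes per list, those of smallest adjusted p, and the genes of the windows nearest the sum of 100. Every urothelial marker looked up is also named. The other named genes, such as those on either side of the stretch and in the runs, were chosen after their values were seen. Alternatives were other scalings, DESeq2 1.42.0 without shrinkage, other count minimums, windows of 25 or 100 kb, shifted windows, placement by the lowest start, removal of the gene with most counts in each window, removal of genes overlapped from the opposite strand, a replicate block, and leaving out each library. Same-numbered libraries of the lines did not deviate together, so no pairing was used.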

Additional observations from a re-analysis of the deposited data

Results flagged for a closer look

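In 4 of 70 sets of 5 libraries, formed from each line in the windows and genes from POLRMT to SBNO2, the highest or lowest library lay far from the other 4 for the range of the set, and chance alone gives about 3.5 such sets. SBNO2 had 202 CPM in T24 replicate 1, against 217 to 219 in the other T24 libraries. POLR2E had 216 CPM in T24R2 replicate 1, against 190 to 196. ABCA7 had 27.4 CPM in T24R2 replicate 2, against 24 to 24.8. ENSG00000279753, which lies opposite CNN2, had 76.3 CPM in T24 replicate 1, against 58.5 to 61.3.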

How the results depend on the processing

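POLRMT, ARHGAP45 and SBNO2 stayed called lower under each of the 17 alternatives run for genes, and log2 ratios without scaling beyond library size were -0.97, -1.73 and -0.75. Leaving out each library in turn gave 8 to 10 lower and 2 to 4 higher genes in the stretch, 3 lower and 2 higher windows each time, and a median log2 ratio of the 11 windows of -0.17 to -0.12. GPX4 lost its call without T24 replicate 1 or 4 or T24R2 replicate 2 or 4. That median was -0.14 in the main setting, 0.0256 without scaling, -0.0632 with upper-quartile scaling, -0.28 in 25 kb windows, -0.18 in 100 kb windows, -0.29 in windows shifted by 25 kb, -0.25 with genes placed by their lowest start and -0.63 without the gene with most counts in each window (8 windows). Without scaling or with upper-quartile scaling GPX4 and R3HDM4 lost their calls, which left 7 lower genes of the stretch, and WDR18 was called higher, which made 5.

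Lower windows of the stretch numbered 7 of 18 at 25 kb and 1 of 6 at 100 kb, against 3 of 11. Higher windows numbered 1 instead of 2 with a sum of at least 1000, at 100 kb, when shifted, by the lowest start and without the leading gene. With a mean of at least 100 counts, 1 gene of the stretch was called higher, and 48 genes of the segment were lower and 75 higher because 356 and not 522 genes were tested. Over the segment, 27 windows were lower with a sum of at least 1000 (215 windows) and 20 at 100 kb (166 windows), and 29 were higher at 100 kb and 30 without the leading gene (140 windows). With the replicate block, the median of the stretch was -0.14, with 9 lower and 3 higher genes and 3 lower and 2 higher windows, and 41 lower and 64 higher windows over the segment. Libraries with the same number correlated at -0.0166 to 0.0136 in their deviations, so the numbers do not pair them. The cause of these shifts was not tested. The window of TINCR, close to the minimum sum, had a standard error of 0.39, so that small changes were not detectable in such windows.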
